A study of Mus musculus with 2 samples.

Results

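Long intergenic RNA genes (lincRNA genes) are genes whose transcripts are spliced and processed much like messenger RNAs but carry no annotated protein. They were taken here as every gene row with the biotype lincRNA in the gene annotation that accompanied a single-cell RNA sequencing study of the mouse cochlea. The rule gave 3707 genes of 27998 mouse genes in the annotation, which also held 22048 protein-coding and 2243 antisense genes. Its gene rows had only these 3 biotypes. None of the 3707 lay on an unplaced scaffold.

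The study held 2 libraries of mouse cochlear cells, both from Myo15-Cre;Ai14 animals at postnatal day 8. One library came from cochleae given an Anc80 virus (an adeno-associated virus capsid) with GFP as the control, the other from cochleae given an Anc80 virus with Ikzf2, the gene of the transcription factor Helios. In both groups the cells had been sorted for tdTomato, the reporter of the Ai14 allele, which Cre switches on under the hair cell myosin promoter Myo15, and were captured as single cells in droplets for sequencing from the poly(A) end. The design has 1 library per group, so it has no replicate, and the labels do not say how many animals went into each library. No expression value is analysed here: the values below are positions and lengths of gene models, which are the same for both libraries, and the labelled cell type could not be checked against its markers.

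LincRNAs are read by RNA polymerase II, and many are capped, spliced and polyadenylated. Some act on chromatin near the place where they are made, such as Xist, which coats and silences an X chromosome. Others build nuclear bodies, as Neat1 does for paraspeckles, or serve as precursors of microRNAs. Their promoters are often shared with a protein-coding gene that is read in the other direction, and in the developing ear as in other embryonic tissues such pairs include genes of transcription factors.

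The neighbour relation is easiest to see in the sequence. In 4 pairs whose lincRNA symbol is not a Gm or Rik number, the lincRNA and the protein-coding gene start close together on opposite strands. Lhx1os and Fmr1os are named after their neighbours. The 4 are picked examples and do not stand for all such pairs. BC030343, which starts nearer to its neighbour at 53 bases from Zfp316, is not shown. Each run below is written on the strand of the protein-coding gene and ends at its first base. The capitals run from the first base of the lincRNA, which is read leftwards from there on the other strand, to the first base of the protein-coding gene. The sequences are those of RefSeq for build GRCm38.p6, and the starts are those of the annotation. Lhx1 (at chr11:84525535-84525784, minus strand) and Hoxd1 (chr2:74762730-74762980, plus strand) encode homeodomain transcription factors. Fmr1 (chrX:68678291-68678541, plus strand) encodes an RNA-binding protein of synapses, and Sema5a (chr15:32244563-32244813, plus strand) a membrane-bound guidance cue of axons.
Haglr/Hoxd1: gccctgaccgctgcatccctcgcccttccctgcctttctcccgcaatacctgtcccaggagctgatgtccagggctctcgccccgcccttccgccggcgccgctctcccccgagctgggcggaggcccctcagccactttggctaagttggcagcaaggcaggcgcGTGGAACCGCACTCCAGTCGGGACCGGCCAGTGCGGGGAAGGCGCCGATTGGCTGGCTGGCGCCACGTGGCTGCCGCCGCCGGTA
Lhx1os/Lhx1: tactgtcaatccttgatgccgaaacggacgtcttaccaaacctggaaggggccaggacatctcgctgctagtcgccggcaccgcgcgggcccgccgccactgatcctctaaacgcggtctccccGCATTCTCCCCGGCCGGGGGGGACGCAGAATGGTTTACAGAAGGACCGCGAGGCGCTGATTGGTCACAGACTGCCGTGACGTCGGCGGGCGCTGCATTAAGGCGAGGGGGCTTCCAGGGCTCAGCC
Fmr1os/Fmr1: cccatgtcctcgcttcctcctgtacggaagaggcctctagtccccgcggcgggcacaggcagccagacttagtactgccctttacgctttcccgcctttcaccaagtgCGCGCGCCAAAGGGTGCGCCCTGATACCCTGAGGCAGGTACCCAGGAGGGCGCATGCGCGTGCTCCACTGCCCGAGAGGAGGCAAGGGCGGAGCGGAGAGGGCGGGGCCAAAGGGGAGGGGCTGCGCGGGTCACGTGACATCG
Snhg18/Sema5a: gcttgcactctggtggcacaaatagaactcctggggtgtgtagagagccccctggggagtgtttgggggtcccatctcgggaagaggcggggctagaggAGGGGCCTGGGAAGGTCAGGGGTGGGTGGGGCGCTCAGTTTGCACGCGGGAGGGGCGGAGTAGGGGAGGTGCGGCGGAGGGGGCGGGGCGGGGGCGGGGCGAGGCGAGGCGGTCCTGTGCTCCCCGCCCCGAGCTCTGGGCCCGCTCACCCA

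The 2 starts of a pair were 84 bases apart for Haglr and Hoxd1, 125 for Lhx1os and Lhx1, 142 for Fmr1os and Fmr1, and 151 for Snhg18 and Sema5a. All 4 runs were rich in G and C, at 71.3%, 64.8%, 67.3% and 71.7% in the same order. The dinucleotide CG occurred 24, 26, 22 and 17 times in them. For contrast, the start region of Rubie is shown, a lincRNA gene on the minus strand of chromosome 14 named for its place upstream of the growth factor gene Bmp4 and its expression in the inner ear, with no protein-coding start near. It covers chr14:46575802-46576101 (RefSeq, GRCm38.p6, minus strand), and its capitals mark each CG.
Rubie: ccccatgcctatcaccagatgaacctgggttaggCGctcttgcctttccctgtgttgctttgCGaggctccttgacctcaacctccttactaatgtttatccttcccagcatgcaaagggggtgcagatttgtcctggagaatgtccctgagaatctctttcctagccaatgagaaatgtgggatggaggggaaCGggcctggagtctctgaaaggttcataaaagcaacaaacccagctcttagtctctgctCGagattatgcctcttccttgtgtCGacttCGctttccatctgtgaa

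The Rubie region held 6 CG in 300 bases, and its GC content was 50%. Its ratio of observed to expected CG, which is 1 where C and G follow each other as often as their own frequencies give, was 0.321. In the 4 shared regions that ratio ran from 0.593 for Snhg18/Sema5a to 0.991 for Lhx1os/Lhx1. The windows differ: the 4 runs have 250 or 251 bases and end at the start of the protein-coding gene. The Rubie region has 300 bases on both sides of the start of the lincRNA gene itself. Rubie was chosen for its link to the ear, after its values had been seen, so the contrast is an example only.

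The gene models of lincRNAs were short and simple. The span from first to last base had a median of 4815 bases (quartiles 2364.5 and 15281.5), against 16568.5 bases (5426.75 and 44019.2) for protein-coding genes. The longest transcript of a lincRNA gene had a median of 3 exons and 1008 spliced bases (quartiles 577 and 1864), that of a protein-coding gene 6 exons and 2573 bases (1401.75 and 4078). Here and below the longest transcript was taken whatever its own biotype, so it need not be the coding one. In Cspp1, with 27 transcripts, it was a single exon of 5009 bases. By the largest exon number over transcripts the medians were 3 and 7. The median number of transcripts was 1 for lincRNA genes and 2 for protein-coding genes. These values describe a full listing of models, so they carry no sampling error, and genes are not replicates of an experiment.

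Models with 2 exons were the commonest kind. The longest transcript had 2 exons in 1523 lincRNA genes (41.1%) and in 8.92% of protein-coding genes. Genes with a single exon in every transcript were fewer among lincRNAs, 231 genes (6.23%) against 10.8%. A single transcript was listed for 2740 lincRNA genes (73.9%) and for 36.5% of protein-coding genes. At the other end, 59 lincRNA genes (1.59%) had 5 or more transcripts, as did 31.0% of protein-coding genes. Antisense genes, the other class of RNA genes in the annotation, had a median span of 5369 bases and a median spliced length of 784 bases.

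**Figure D1:**
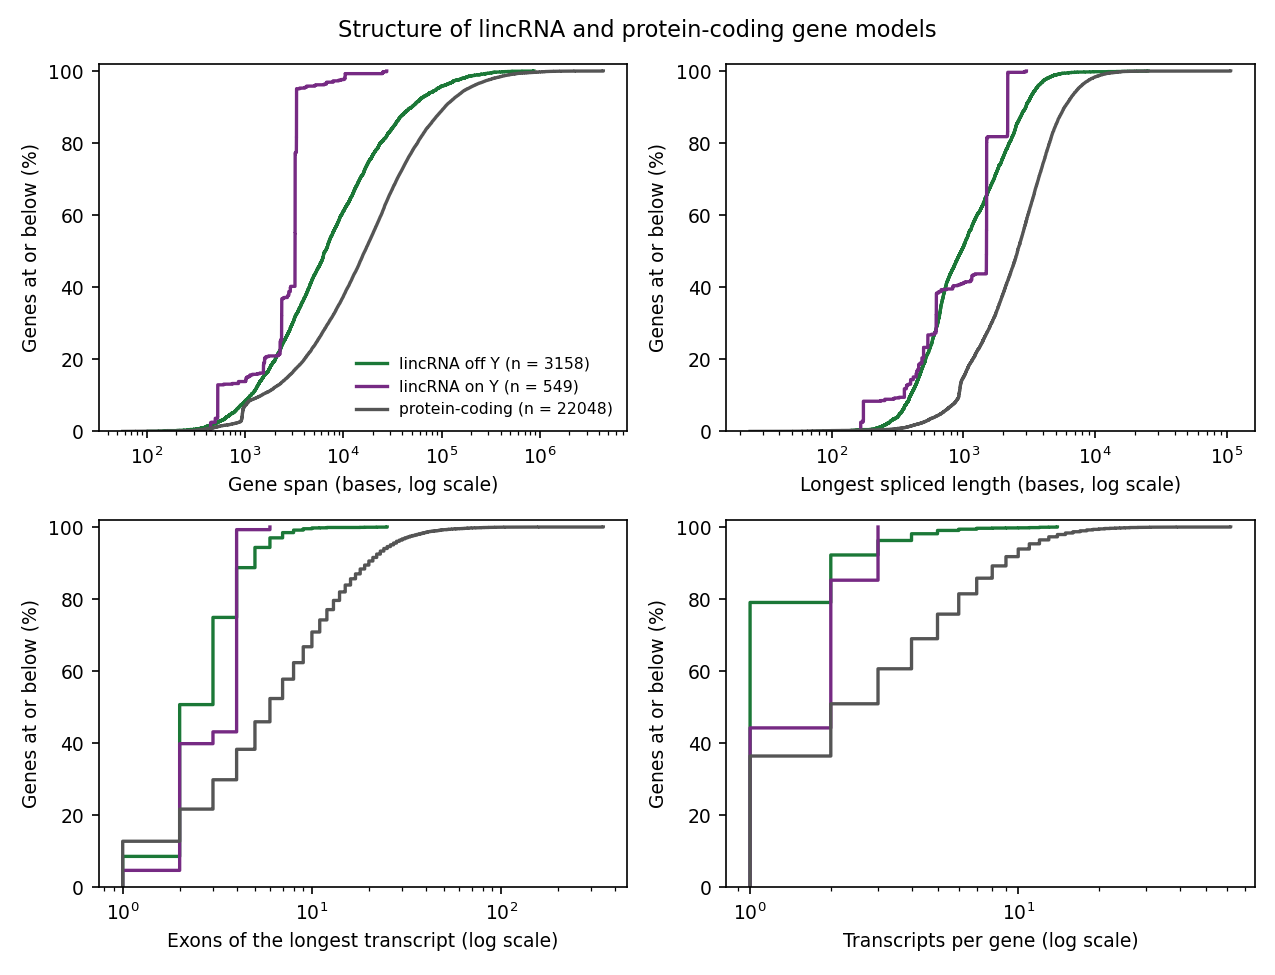
Cumulative share of genes (%) by gene span and longest spliced length (bases), exons of the longest transcript and transcripts per gene, all on log axes, for 3158 lincRNA genes off chromosome Y, 549 on Y and 22048 protein-coding genes. The lincRNA genes off Y lie left of the protein-coding genes for all 4 measures except at the lowest values, and those on Y rise in steps because many have the same length.

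Chromosome Y set some of these medians. It held 549 lincRNA genes (14.8% of all) beside 183 protein-coding genes. Without them the median span was 6543.5 bases and the median exon number 2, and the median spliced length was 960.5 bases. On Y itself the medians were 3235 bases of span, 4 exons and 1495 spliced bases. Both sets stayed below the protein-coding medians in span, exons and spliced length.

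The steps on Y came from near-identical gene copies. Of 3531 lincRNA genes with a transcript sequence in GENCODE release M21, 589 (16.7%) matched another at 95% identity or more over at least 80% of the longer transcript. On Y these were 535 of 549 genes (97.4%), and elsewhere 54 of 2982 (1.81%). The copies formed 33 groups, and the 3 largest held 410 genes. The largest had 233 genes, 221 on Y and 12 on X, and 231 of the 233 had 4 exons in the longest transcript. Its members on X included 11 Astx genes, whose name stands for amplified spermatogenic transcripts of the X, each with 4 exons and 1149 or 1150 spliced bases. The 549 genes on Y had 406 distinct sequences, so many copies differ at some bases. Counts for such copies are uncertain where a read covers only shared bases, and no read was examined here.

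The commonest single sequence on Y shows how far the likeness goes. Gm29351 (GRCm38, chrY:4903523-4904050, minus strand) has 2 exons and a transcript of 174 bases, and 24 genes on Y, 15 of them on the plus strand, had exactly this transcript in GENCODE release M21. No part of it is in capitals, since all 24 are the same at every base.
Gm29351: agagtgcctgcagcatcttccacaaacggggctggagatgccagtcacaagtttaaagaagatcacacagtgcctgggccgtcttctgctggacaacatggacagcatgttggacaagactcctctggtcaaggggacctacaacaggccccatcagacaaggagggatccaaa

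**Figure D2:**
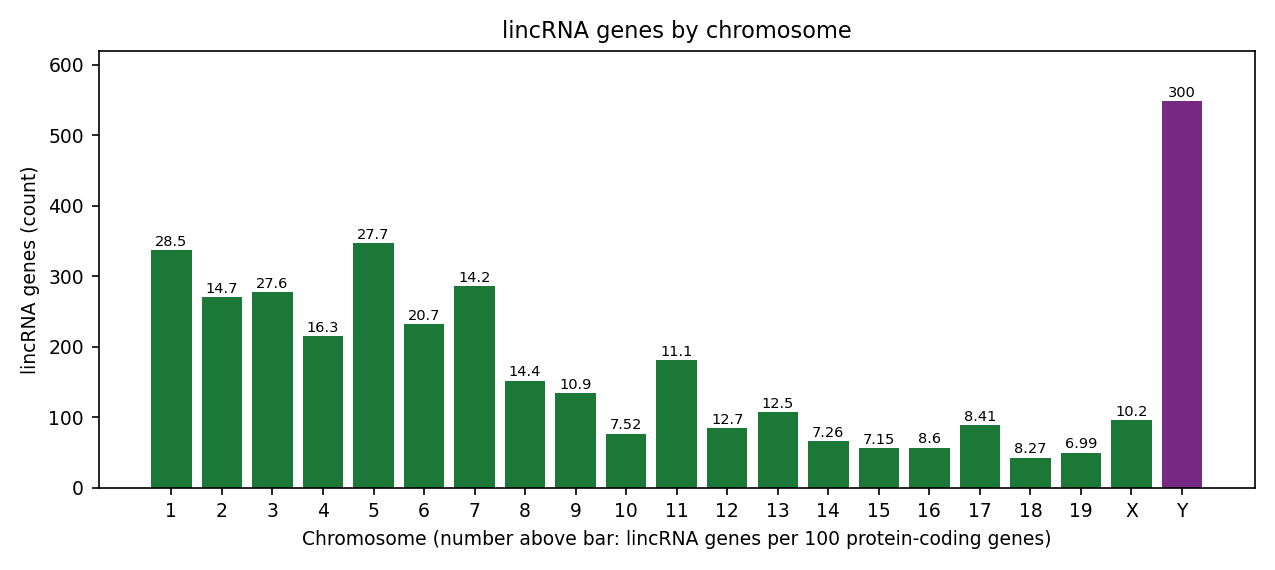
Number of lincRNA genes on each chromosome (bars, count), with lincRNA genes per 100 protein-coding genes written above each bar. Chromosome Y stands highest with 549 genes, or 300 per 100 protein-coding genes, and chromosome 19 has the lowest ratio, 6.99.

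Outside Y the density of lincRNA genes was uneven. Chromosomes 1, 3 and 5 held 337, 278 and 347 lincRNA genes, or 28.5, 27.6 and 27.7 per 100 protein-coding genes. Chromosome 19 held 50, or 6.99 per 100, and chromosome X held 96, or 10.2 per 100. The models were mostly curated by hand: 3012 genes (81.3%) had the source havana, the manual annotation group. Most of them had not been named for a function, since 3558 (96.0%) carried a clone-type symbol such as Gm or Rik numbers, against 11.2% of protein-coding genes. Of the 5269 lincRNA gene transcripts, 1998 (37.9%) had the best support level, 1, against 42.9% of the transcripts of protein-coding genes.

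Most lincRNA genes lay far from any protein-coding start. The median distance from a lincRNA start to the nearest protein-coding start was 58623 bases (quartiles 14255.5 and 162657), against 22445 bases from a protein-coding start to the next one. Off chromosome Y it was 45053.5 bases, and on Y 156962 bases. Within 5000 bases lay 568 lincRNA genes (15.3%), where 18.8% of protein-coding genes had another protein-coding start that close. Off Y the share was 18.0%, which is nearer to the protein-coding share, and on Y 1 of 549 genes was that close.

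Orientation differed with distance. A lincRNA is called divergent here when it lies on the other strand and the starts are head to head, so that both genes are read away from each other. It is convergent when it lies on the other strand but starts past the protein-coding start and is read back towards it. The remaining genes lie on the same strand, with their start upstream or downstream of the protein-coding start. Of the 568 near genes, 339 (59.7%) were divergent, where 53% of protein-coding genes that near to another were. Convergent genes numbered 151, same-strand upstream genes 64 and same-strand downstream genes 14.

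The divergent share was largest at the shortest distances. Within 1000 bases lay 345 lincRNA genes (9.31%, against 12.2% of protein-coding genes), and 248 of them (71.9%) were divergent, against 55.7%. Within 250 bases, 172 of 210 lincRNA genes (81.9%) were divergent, against 64.0% of 1723 protein-coding genes. Between 1000 and 5000 bases the order turned, with 40.8% of 223 lincRNA genes and 48.2% of 1466 protein-coding genes divergent. The divergent share of lincRNA genes was 31.7% of 189 between 5000 and 10000 bases and 34.1% of 961 between 10000 and 50000, so it did not fall at every step. Beyond 50000 bases, where 1989 lincRNA genes (53.7%) lay, the 4 orientations had shares of 26.0% (divergent), 22.8% (convergent), 26.9% (same strand, upstream) and 24.3% (same strand, downstream).

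**Figure D3:**
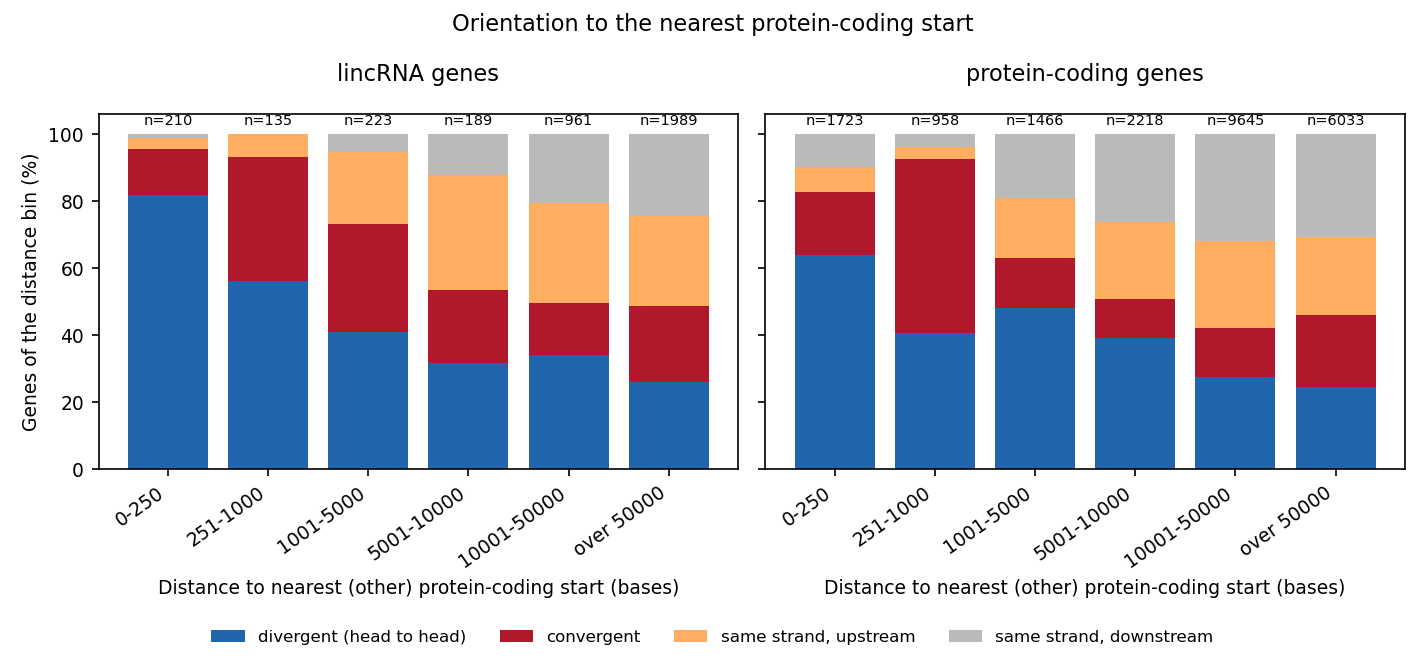
Share of genes (%) by orientation to the nearest protein-coding start, in 6 bins of distance (bases), for lincRNA genes (left) and protein-coding genes (right), with the number of genes above each bar. The divergent share of lincRNA genes is 81.9% within 250 bases and 26.0% beyond 50000 bases.

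The pairs with the closest starts hold genes of several kinds. Among 29 near lincRNA genes without a clone-type symbol, 16 were divergent and 7 convergent. Some of the 29, such as Lhx1os and Mkln1os, carry the neighbour's symbol plus os. For these the nearness is tied to the name, so the 29 do not stand for near genes at large. Of the 29, the 5 divergent genes nearest to a protein-coding start were BC030343, Haglr, Lhx1os, Fmr1os and Snhg18. BC030343 lay 53 bases from Zfp316, a zinc finger protein gene. Cep83os lay 177 bases from Cep83, a gene of the centriole, and Platr23 lay 251 bases from Zfp281, a zinc finger factor gene of pluripotent cells, and both were divergent. Convergent examples were Mkln1os, 38 bases past the start of Mkln1 (muskelin), and Irx3os, 1501 bases past that of Irx3, a homeodomain gene. The last genes inside the 5000 base limit were Mir142hg at 4964 bases from Bzrap1, RP24-185P7.1 at 4969 and Gm26669 at 4979, and the first outside were Gm37552 at 5027, RP23-191I16.3 at 5030 and Gm37584 at 5040.

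Not every member was strictly intergenic. The row of a lincRNA gene overlapped that of a protein-coding gene in 477 cases (12.9%), on the opposite strand in 414 and on the same strand in 86. An exon of the lincRNA overlapped an exon of the protein-coding gene on the opposite strand in 271 genes and on the same strand in 17. In the later GENCODE release M21, 3650 of the 3707 genes (98.5%) were found by identifier, and 3423 (92.3%) were still lincRNA. There 105 had become antisense, and 95 of those overlapped a protein-coding row in the annotation used here. The class bidirectional promoter RNA, which the annotation used here lacks, took 47, of which 34 were divergent and 8 convergent within 1000 bases here.

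The CG content of starts was then compared beyond the 4 pairs shown above. RefSeq start regions matched 835 of 3707 lincRNA genes (22.5%), which is too few for a comparison between groups, so that comparison is void. The first 200 bases of the transcript that begins at the gene start were used in its place, from GENCODE release M21, for 3438 lincRNA genes (92.7%) and 17673 protein-coding genes (80.2%). Of 223 lincRNA genes divergent within 1000 bases, 92 (41.3%) were rich in CG, with GC content over 50% and a ratio over 0.6. Among all protein-coding genes the share was 46.9%, and among protein-coding genes divergent within 1000 bases of another it was 69.6%. Of 2940 lincRNA genes more than 5000 bases away, 140 (4.76%) were rich in CG, or 5.70% of the 2456 off chromosome Y.

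Within the same limit of 5000 bases the shares lay close together, as 101 of 310 divergent genes (32.6%) and 60 of 188 of the other orientations (31.9%) were rich in CG. The median ratio at that limit was 0.501 in divergent genes and 0.461 in the others, and it was 0.577 in the divergent genes within 1000 bases. In lincRNA genes off Y and more than 5000 bases away it was 0.247, and in protein-coding genes 0.592. The first 200 bases are spliced sequence and lie past the start, so they show less of a promoter than the start regions printed above. They were chosen after the low number of matched start regions had been seen.

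**Figure D4:**
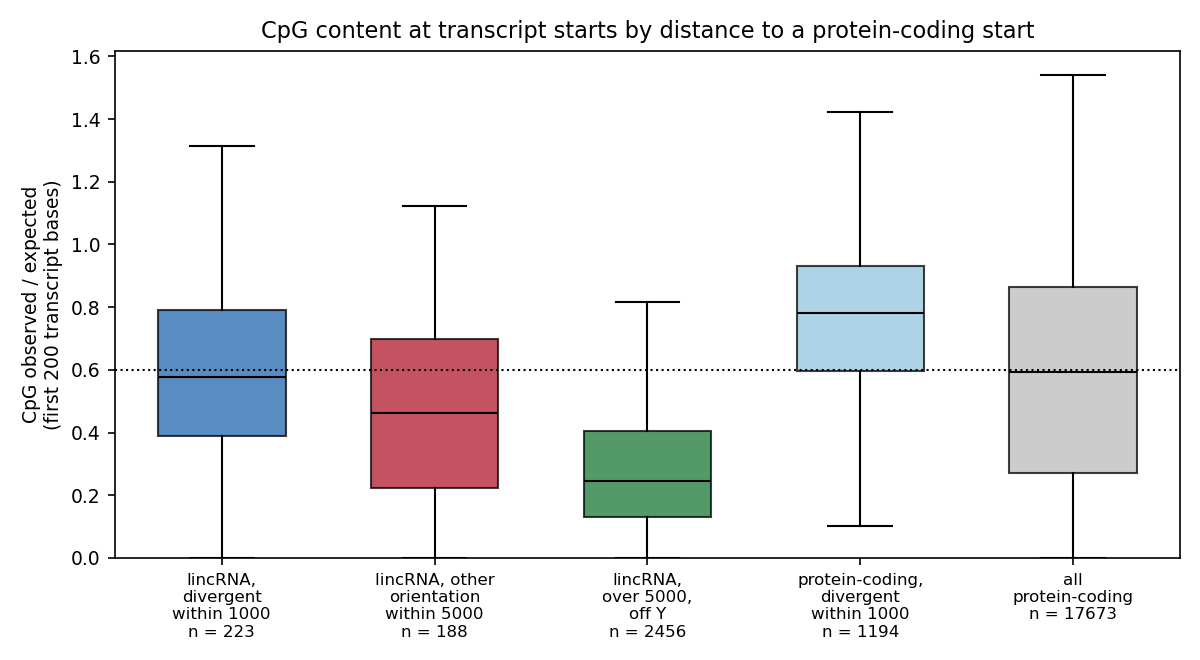
Ratio of observed to expected CG in the first 200 transcript bases (box: quartiles with the median; whiskers: the farthest values within 1.5 box lengths; farther values not drawn) for 3 groups of lincRNA genes by distance in bases and orientation and for 2 groups of protein-coding genes. The dotted line marks 0.6, and the median is 0.577 for divergent lincRNA genes within 1000 bases and 0.247 for distant ones off Y.

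The neighbours were next read from the side of the protein-coding genes. A protein-coding gene had a lincRNA start within 5000 bases in 590 of 22048 cases (2.68%), and a gene of the transcription factor families listed by symbol (Hox, Sox, Pax, Fox, Nkx, Lhx, Pou, Irx, Tbx, Gata and others) in 29 of 249 (11.6%). Of the 29, 21 (72.4%) had the nearest lincRNA in divergent orientation, where 347 of the 590 (58.8%) did. The 29 genes shared 28 lincRNA genes, since Hoxd9 and Hoxd10 had the same one, Gm14396. Within 50000 bases the counts were 86 of the 249 (34.5%) and 2880 of all (13.1%). The symbol rule also takes 10 genes that only look like family members, and without them the count was 28 of 239 (11.7%). Genes of 1 cluster are neighbours and are not independent of each other.

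Hair cells were the cells the sort was made for. None of 39 hair cell genes, among them Atoh1, Pou4f3, Ikzf2 and Myo7a, had a lincRNA start within 5000 bases, where 2.68% of all protein-coding genes did, or within 10000 bases, where 3.76% did. At such shares a list of 39 would hold few such genes, so a count of 0 does not set the list apart. Within 50000 bases 3 had one (7.69%, against 13.1% of all protein-coding genes). They were Lhx3, a LIM homeodomain factor gene, with Gm13553 at 16611 bases, Gfi1, a zinc finger factor gene needed for hair cell survival, with 4930428O21Rik at 22556 bases, and Myo6, a myosin gene, with Gm17477 at 43094 bases. The lists were small, and no test was made of these shares.

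Genes of supporting cells and of the wider inner ear gave 5 of 45 (11.1%) within 5000 bases, where the share of all protein-coding genes was 2.68%. Lfng, which modifies the Notch receptor, had Gm43703 at 769 bases, divergent. Otx2, a head homeodomain factor gene, had Otx2os1 at 1644 bases, and Pou3f4, a deafness gene, had RP23-240M8.2 at 1956 bases, both divergent. Dll1, a Notch ligand gene, had A930024N18Rik at 1872 bases, and Neurod1, a neuronal factor gene, had Gm26755 at 2766 bases, both convergent. Within 50000 bases the count was 12 of 45 (26.7%, against 13.1% of all), among them Sox2, the progenitor factor gene, with Gm43207 at 48157 bases, divergent. Otx2, Pou3f4 and Neurod1 also belong to the transcription factor families above.

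Starts just past the end of a protein-coding gene were counted as well. Sequencing from the poly(A) end makes such places matter, since a read from an unannotated longer end of the first gene would fall on the second. A lincRNA gene started within 5000 bases past a 3' end on the same strand in 121 cases (3.26%), where 11.2% of protein-coding genes did. Of these, 5 started within 100 bases, among them Gm17354, 25 bases past Zfyve9, Gm12847, 29 past Atpaf1, Gm12525, 40 past Sort1, and Gm14061, 100 past Btbd3. Of the 121, 12 started inside a protein-coding gene of the same strand in GENCODE release M21. This count did not leave out the gene itself. Among the 12, 5430416O09Rik, Gm11213 and 6030408B16Rik are themselves protein-coding in M21. Another, 3110039M20Rik, already starts inside the protein-coding gene of the same symbol in the annotation used here. The 12 are thus not all starts inside a longer neighbour. One lay past a gene of the ear lists, Lockd, 3579 bases past Cdkn1b, the cell cycle inhibitor gene of supporting cells. Whether reads of the 2 libraries fell on these genes was not tested.

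The best-known lincRNA genes were larger than most. Of 73 names looked for, 35 were found as lincRNA and stood for 36 genes, because Dancr had 2 gene rows. Another 12 had a different biotype: 11 were antisense, among them Tsix, Kcnq1ot1 and Airn, and Snhg11 was protein-coding. The other 26 names matched no gene row. Names were matched by symbol only, so a gene held under another symbol would not be found by such a name. A gene of any biotype other than lincRNA, antisense and protein-coding could not be found, since the annotation has no such rows. The 36 had a median span of 12473.5 bases, a median spliced length of 2346.5 bases and a median of 3 transcripts. They were chosen as known examples, so their size says nothing about lincRNA genes at large.

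**Figure D5:**
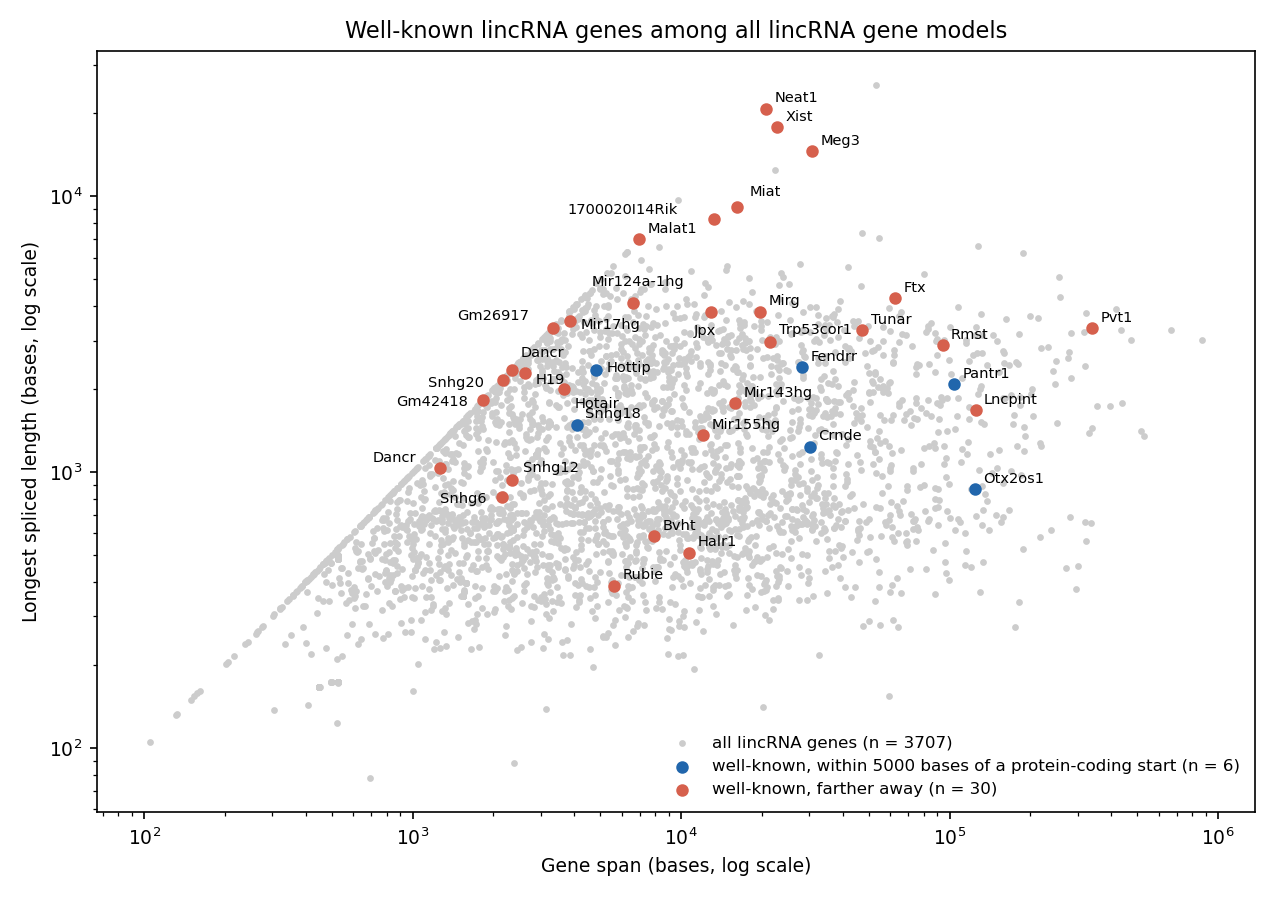
Gene span against longest spliced length (bases, both log axes) of all 3707 lincRNA genes (grey) and of the 36 well-known ones, coloured by whether a protein-coding start lies within 5000 bases (6 genes, blue) or not (30 genes, red). Neat1, Xist and Meg3 lie near the top, and Rubie, with 388 spliced bases, is the lowest of the well-known genes.

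The nuclear RNAs stood out by spliced length. Malat1, the abundant RNA of nuclear speckles, was a single exon of 6983 bases on chromosome 19, and 11 lincRNA genes had a longer transcript. Neat1, the scaffold of paraspeckles, was a single exon of 20771 bases on the same strand, with 22035 bases between the 2 genes, and it had 1 longer member, RP24-267C3.3 at 25241 bases. Neat1 began 4224 bases past the end of Frmd8. Miat, a nuclear RNA first linked to the heart, had 7 exons and 9163 spliced bases.

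The genes of the X inactivation centre lay together. Xist had 7 exons and 17769 spliced bases within a span of 22843, its activator Jpx had 3 exons and 3802 bases, and Ftx, a further regulator, had 11 exons and 4275 bases within 62848. Among genes of imprinted domains, H19 had 5 exons and 2286 spliced bases and started 88673 bases from Igf2, the growth factor gene imprinted in the opposite way. Meg3 had 5 exons, 11 transcripts and 14548 spliced bases, and started 88178 bases from Dlk1. Mirg, at the far end of the same domain as Meg3, had 12 exons and 12 transcripts.

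Of the 36 well-known genes, 6 (16.7%) lay within 5000 bases of a protein-coding start, where 15.3% of all lincRNA genes did. All 6 were divergent, as were 59.7% of all near lincRNA genes. They were Snhg18, Pantr1 at 926 bases from Pou3f3, Fendrr at 1276 from Foxf1, Otx2os1 at 1644 from Otx2, Crnde at 1676 from Irx5 and Hottip at 1895 from Hoxa13. The partner encodes a transcription factor in 5 of these 6, and 29 of the 590 protein-coding genes with a near lincRNA start were in the family list above. The 6 are chosen examples. Hotair, of the HoxC cluster, lay 6697 bases from Hoxc11, also divergent, and Trp53cor1, the p53 target also called lincRNA-p21, lay 12018 bases from Cdkn1a, which encodes p21.

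Among the 36 well-known genes, 27 lay more than 10000 bases from any protein-coding start. So did most lincRNA genes, as 757 of all 3707 (20.4%) lay within that limit. Such a distance does not set the well-known genes apart. Pvt1 had a span of 340111 bases and started 52645 bases from Myc on the same strand. Rmst, a neural lincRNA, lay 557250 bases from its nearest protein-coding start, that of Nedd1, and had 14 transcripts, the most of any lincRNA gene. Rubie started 185178 bases upstream of Bmp4 on the same strand with no protein-coding start between them, while the nearest start on its other side, that of Cdkn3, was 184694 bases away. Between Rubie and Bmp4 lay another lincRNA gene, Gm15221, at 46186 bases from Bmp4.

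The remaining well-known genes ranged from small to large. The snoRNA hosts Snhg6, Snhg12 and Snhg20 had 816, 933 and 2153 spliced bases, and Snhg12 lay 5293 bases from Rab42, just outside the near limit and divergent. Halr1, of the HoxA cluster, had 511 spliced bases in 3 exons. The gene 1700020I14Rik had 8300 spliced bases in 3 exons, and Lncpint, known from the p53 response, had 1676 within a span of 124916. The microRNA hosts by name Mir124a-1hg and Mir143hg had 4103 and 1778 spliced bases, and Bvht, a lincRNA of heart precursors, had 588.

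The extremes were mostly unnamed genes. The largest spans were those of Gm26573 (871504 bases), RP23-231J2.1 (666481) and Gm20754 (528515), with 4, 2 and 5 exons. The most exons were found in 4930579C12Rik (25), Gm9801 (22) and Gm6639 (19). By spliced length RP24-267C3.3, Neat1 and Xist led. After Rmst, the most transcripts were those of Gm29328 (13), and then 12 each in 2810429I04Rik, Pantr1 and Mirg.

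Most polyadenylated RNAs carry a hexamer shortly before their end that marks where the RNA is cut. The letters AATAAA, searched on the transcript strand in the last 50 bases of the longest transcript, were found in 1085 of 3531 lincRNA genes (30.7%) and in 55.8% of 17654 protein-coding genes. Off chromosome Y the share was 36.3%, and on Y 4 of 549 (0.729%). With ATTAAA, the commonest variant, the shares were 40.4% and 68.0%. Among the 30 well-known genes with a sequence, 17 had AATAAA and 3 only ATTAAA. A match is a run of letters and not a shown site.

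The last 30 bases of 6 well-known transcripts are shown, 5 with the hexamer in capitals and Neat1 without it, from GENCODE release M21 on GRCm38. They cover chr19:5795690-5795719 (minus strand) for Malat1, chr7:142575529-142575558 (minus) for H19 and chr12:109571697-109571726 (plus) for Meg3. Those of Hotair cover chr15:102944062-102944091 (minus), those of Pvt1 chr15:62378067-62378096 (plus) and those of Neat1 chr19:5824708-5824737 (minus).
Malat1: ttttatgaAATAAAaactaaatatctctca
H19: ggtccatcAATAAAtacagttacagtcatt
Meg3: gctttcAATAAAtttcttgttttaactaaa
Hotair: aaatgcaAATAAAttcttgtttgtgaatct
Pvt1: acctcagAATAAAgaaaaatttacatgtct
Neat1: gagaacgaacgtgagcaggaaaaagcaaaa

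In the 5 with the hexamer, 16 to 18 bases followed it. Malat1 and the long Neat1 RNA are known to end by a cut that leaves a triple helix and not a poly(A) tail, and the hexamer of Malat1 above stands at the end of the annotated model. The base composition of lincRNA transcripts was poorer in G and C, with a median GC content of 45.6% against 49.0%. The longest open reading frame, from an ATG to a stop, had a median of 59 codons against 351, and reached 100 codons in 499 lincRNA genes (14.1%) and 93.0% of protein-coding genes. A run of 12 A, at which oligo-dT can also bind, was found in 4.30% of lincRNA transcripts and 7.53% of protein-coding ones. Off chromosome Y the lincRNA medians were 46.5% GC and 62 codons. There 16.6% of lincRNA genes reached 100 codons and 5.06% had the run of A.

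Some lincRNA genes are microRNA precursors. Of 1005 hairpins in the RefSeq table (GRCm38.p6), 59 (5.87%) lay within a lincRNA gene on the same strand, in 32 genes (0.863%), where 530 protein-coding genes (2.4%) held 555. Mirg held 14, Mir17hg 6 and RP24-274B19.1 5. Single hairpins lay in H19 (Mir675), Meg3 (Mir770), Mir155hg (Mir155) and 6720427I07Rik (Mirlet7d), each in an exon. Gm3764, C130071C03Rik and AI854517 held Mir9-1, Mir9-2 and Mir9-3, the 3 genes of a neural microRNA, and Gm28653 held Mir133b. A 3' library reads the polyadenylated host and not the mature microRNA.

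Mir17hg, the host of the miR-17 to miR-92 cluster on the plus strand of chromosome 14, had all 6 hairpins in an exon. Its main mature microRNAs are shown with the seed, bases 2 to 8, in capitals (RefSeq, GRCm38.p6).
miR-17-5p: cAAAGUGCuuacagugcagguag
miR-20a-5p: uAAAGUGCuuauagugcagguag
miR-18a-5p: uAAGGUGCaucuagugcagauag
miR-19a-3p: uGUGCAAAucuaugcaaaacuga
miR-19b-3p: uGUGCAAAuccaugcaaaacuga
miR-92a-3p: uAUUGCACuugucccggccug

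By seed these 6 fall into 4 sets. The seed of miR-17-5p and miR-20a-5p is the same, as is that of miR-19a-3p and miR-19b-3p, while miR-18a-5p and miR-92a-3p each have their own. The host itself had 2 exons and 3536 spliced bases and lay 49336 bases upstream of Gpc5, a proteoglycan gene, on the same strand.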

How the data were processed

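Cells sorted from cochleae given a GFP virus or an Ikzf2 virus gave 2 libraries, 1 per group by the treatment labels. What the authors deposited for both together is a gene annotation whose values are genome positions in bases. Per the file headers it follows GRCm38 patch 4 with a gene build of 2016. Cell Ranger 2.0.2 is named, with no role, per the submitters' processing notes, and no aligner is named in the labels or headers. It has 0 columns of per-sample values that were left unused, and none that were used, so there is no depth and no expression, and the comparison of GFP with Ikzf2 was not run.

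Gene span and number of transcripts were read per gene, and exons and spliced length from its longest transcript. Distance was measured between gene starts (for protein-coding genes, to the nearest other protein-coding gene), as was orientation. Sequences came from GENCODE release M21 transcripts with the same identifier, version and length (build GRCm38) and from RefSeq tables of GRCm38.p6, matched by a start within 100 bases. Near-identical copies were searched with BLAST+ 2.17.0. Scripts ran in Python 3.11.15 with Matplotlib 3.10.9, SciPy 1.17.1 and NumPy 2.4.6. The measures were tested on simulated data. No test between groups was made.

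The members, gene lists and tests were chosen with earlier results of these data known. Named genes were every gene found of a list of well-known names, the 3 highest in span, exons, spliced length and transcripts, the 5 divergent named genes nearest to a protein-coding start, those on either side of the 5000 base limit, and those tied to a list. Of the last kind the text names those of the ear lists and gives most others as counts. Other named genes were chosen after their values were seen. The neighbours of some genes are not reported here. Alternatives were other definitions of length and start, other limits of 1000 and 10000 bases, genes without clone-type symbols, and GENCODE M21 as a second annotation.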

Additional observations from a re-analysis of the deposited data

How the results depend on the processing

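The values describe 1 annotation, and another release gives other genes. No paired analysis was possible because the groups have 1 library apiece and no per-sample values were analysed, so no replicate could be left out either. A value is said to have moved when it left the 95% interval of the main value (Wilson for shares, order statistics for medians). In this rule the interval is only a yardstick, since a full listing has no sampling error, and its width depends on the number of genes. By this rule exon number and transcripts per gene moved under no alternative tried. The median exon number was nevertheless 3 for all members and 2 off chromosome Y, since its interval ran from 2 to 3. LincRNA medians stayed below the protein-coding ones in span, exons, spliced length and transcripts under each alternative. The median span (4815 bases) was 4488 for the longest transcript alone, 7931 for the 149 members without clone-type symbols, 6426 in GENCODE M21 and 6543.5 off chromosome Y. The median spliced length (1008 bases) was 830 as the median over transcripts, 1062 over merged exons and 1617 without clone-type symbols. The median distance to a protein-coding start (58623 bases) was 37198 without clone-type symbols, 73688 with clone-type neighbours left out, 70221 in M21 and 45053.5 off Y. The share within 5000 bases (15.3%) was by construction 9.31% at 1000 bases and 20.4% at 10000. It was 13.9% with clone-type neighbours left out and 10.7% in M21, each below the protein-coding share under the same setting (16.9% and 19.4%). It was 18.0% off Y, below the 18.8% of all protein-coding genes, and 19.5% without clone-type symbols, above it. The protein-coding share was not recomputed off Y or without clone-type symbols. Some members without clone-type symbols, such as Lhx1os, are named after the neighbour, so the shares of this set are tied to the naming. The divergent share (59.7%) was 71.9% at 1000 bases, 52.7% at 10000, 55.2% for the 29 near genes without clone-type symbols and 64.0% in M21. The share past a 3' end (3.26%) was 0.620% at 1000 bases and 5.99% at 10000, again by construction. Off Y means fewer genes. For the other moved values the cause was not tested. Leaving out chromosome Y and leaving out look-alike symbols were chosen after seeing the data. Splice site letters were not read, since no genome sequence was used here.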

Other observations

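Some lincRNA genes had long open reading frames. The longest were in Gm37494 (918 codons), Gm43549 (536) and Gm22 (523), and all 3 were still lincRNA in GENCODE release M21. In that release 27 of the 3707 genes were protein-coding. They included Tunar, an RNA of neural and pluripotent cells, Krtap28-10, Kantr and 5430416O09Rik, which M21 names Spaar and which encodes a small peptide of muscle. Of the 21 with a matched sequence, 10 had a frame of 100 codons or more (47.6%), with a median of 93 codons, against 14.1% and 59 codons among all lincRNA genes. The frame had 37 codons in Kantr, 113 in 5430416O09Rik and 312 in Platr25.

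Several symbols did not point to 1 gene. The symbols Dancr, Gm16701, Gm2464, D130017N08Rik and 4930556M19Rik were each held by 2 lincRNA genes. Hist2h2bb, Smim20 and 3110039M20Rik were each held by a lincRNA gene and a protein-coding gene. The lincRNA gene Hist2h2bb starts 31 bases upstream of the protein-coding gene of that name, a histone gene, on the same strand. A table by symbol would merge or rename these genes, and their identifiers tell them apart.

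The class also holds 2 genes known for carrying sequence of the ribosomal RNA precursor. Gm26917 and Gm42418, on the plus strand of chromosome 17, had a single exon of 3329 and 1831 bases and transcripts of 69.1% and 60.2% GC, and they lay 110340 and 106395 bases from the start of Esp38. The median GC content of lincRNA transcripts was 45.6%.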
